A study of Homo sapiens with 8 samples.

Results

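Genes of retinoid metabolism and signalling were followed by RNA sequencing in the human embryonic stem cell (ESC) line MEL1. The set held 9 genes by symbol, namely LRAT, DHRS3, RDH10, ALDH1A2, CYP26A1, CRABP1, CRABP2, RARA and RARG, which was 9 of the 27317 symbols in the count files. All 9 were found in every file, and 8 passed the low-count filter into the 17268 genes tested. ALDH1A2 did not pass. The rule was a list of symbols, with no threshold on a measured value, but the list was chosen with earlier results of these data known.

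The 8 libraries formed 4 groups of 2. In the TCDD D1 group, ESCs had received 2 nM 2,3,7,8-tetrachlorodibenzodioxin (TCDD, a dioxin and ligand of AHR, the aryl hydrocarbon receptor) in DMSO, and RNA was taken at D1, before differentiation began. The DMSO D1 group had received an equivalent volume of DMSO alone and was taken at the same point. The TCDD D2 group had the same TCDD exposure at the ESC stage and was taken after 2 days of cardiac differentiation in RPMI1640 with B27 lacking insulin and 5 µM of the GSK3 inhibitor CHIR99021. The DMSO D2 group went through the same differentiation with DMSO alone. All groups came from a single cell line, so no donor-to-donor spread was measured. Not given in the sources used here were how long the exposure lasted, whether TCDD stayed on during differentiation and whether a group's libraries were separate cultures. The p-values thus speak only for the spread between these samples, and that spread may be technical.

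Retinol (vitamin A) enters cells, where LRAT joins it to a fatty acid and stores it as retinyl ester. Retinol that is not stored is oxidised to retinal by dehydrogenases such as RDH10, and retinal is oxidised to retinoic acid by aldehyde dehydrogenases such as ALDH1A2, while DHRS3 turns retinal back into retinol. Retinoic acid is carried by CRABP1 and CRABP2, acts through RAR nuclear receptors paired with RXR, and is broken down by CYP26 enzymes. In vertebrate embryos this balance patterns the body axis and the early heart, and CYP26A1 is a well known direct target of retinoic acid receptors.

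The label checks came out as follows. CYP1A1, a standard AHR target, had 101 and 77.7 CPM (edgeR's count relative to the library total, scaled for composition) in TCDD D1, against 0.76 and 0.813 CPM in DMSO D1. In D2 libraries it had 2.56 and 1.82 CPM with TCDD, against 0.464 and 0.292 CPM with DMSO. The summed level of 6 primitive streak and mesoderm markers was 471 to 540 CPM in TCDD D2 and 780 to 802 CPM in DMSO D2, against 2.47 to 2.48 CPM in TCDD D1 and 2.1 to 2.64 CPM in DMSO D1, where EVX1 was at 0. The 7 pluripotency markers stayed high, at 4340 to 4370 CPM in TCDD D2 and 3990 to 4060 CPM in DMSO D2, against 4620 to 4650 CPM in TCDD D1 and 4660 to 4730 CPM in DMSO D1. Library totals ran from 34873055 to 43770420 counts.

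The promoters of LRAT and CYP26A1 are shown because these were the members whose TCDD effect differed between the 2 times. Each is the 250 bases before a RefSeq transcription start on GRCh38.p14, written 5′ to 3′, and 8 of the 9 members had one in the table. LRAT lies at chr4:154743750-154743999 on the plus strand. The window of CYP26A1 is that of the second of its 2 listed starts, at chr10:93073643-93073892 on the plus strand, and its capitals mark a direct repeat of AGTTCA with 5 bases between, read on the minus strand.
LRAT: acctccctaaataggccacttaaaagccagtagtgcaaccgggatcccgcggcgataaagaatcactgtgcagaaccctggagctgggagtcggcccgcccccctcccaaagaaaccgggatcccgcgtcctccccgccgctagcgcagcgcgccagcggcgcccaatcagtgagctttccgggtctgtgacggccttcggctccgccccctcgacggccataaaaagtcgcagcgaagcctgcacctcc
CYP26A1: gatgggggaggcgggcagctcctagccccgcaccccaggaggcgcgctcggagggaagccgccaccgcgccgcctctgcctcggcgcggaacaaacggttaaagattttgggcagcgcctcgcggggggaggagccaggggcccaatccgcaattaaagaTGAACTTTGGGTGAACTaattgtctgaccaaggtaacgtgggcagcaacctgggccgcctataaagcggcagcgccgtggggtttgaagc

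The search covered both strands for the AHR core element GCGTG, its longer form TNGCGTG, which contains the core, the half-sites AGGTCA and AGTTCA, and direct repeats of either half-site with any 5 bases or any 2 bases between its 2 copies, which contain the half-sites. Such repeats are the textbook form of a retinoic acid response element. The LRAT window held none of them. In CYP26A1, the second start had the AGTTCA repeat with 5 bases between as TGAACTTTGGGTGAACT, beginning 90 bases before the start, and its half-sites began 90 and 79 bases before it, inside the repeat. The first start, at chr10:93073225-93073474, had no match. Among all 35116 RefSeq promoters in the table, GCGTG was found in 32.2%, TNGCGTG in 4.52%, AGGTCA in 12.1%, AGTTCA in 8.8%, and the AGTTCA repeat with 5 bases between in 3 (0.00854%). Each of the other repeats was in 1 promoter (0.00285%). Of the other members with a promoter in the table, ALDH1A2 (at one of 2 starts) and RARA (at one of 3) held GCGTG, while single half-sites lay in DHRS3, ALDH1A2 and RARA. CRABP1, CRABP2 and RARG held none of these letters. RDH10 is named only. A match is a description of letters and says nothing of binding.

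LRAT, the enzyme of retinol storage, was the member that moved most with TCDD. It had 630 and 631 CPM in TCDD D1, against 24.4 and 21.9 CPM in DMSO D1. In D2 libraries it had 226 and 209 CPM with TCDD, against 39.7 and 33.8 CPM with DMSO. Every TCDD library stood above every DMSO library, and the groups did not overlap at either time. At D1 LRAT was 27.2-fold higher with TCDD (log2 change 4.77 ± 0.07 SE, n = 2 per group, edgeR quasi-likelihood test with Benjamini-Hochberg adjusted p = 2e-18), the 3rd highest log2 change among the 17268 genes tested. At D2 it was 5.94-fold higher (2.57 ± 0.07, edgeR adjusted p = 2.64e-14), the 9th highest. These were bulk libraries, so more cells that make LRAT and more LRAT RNA per cell cannot be told apart.

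The TCDD effect on LRAT was smaller at D2, with a D2 effect minus D1 effect of -2.20 ± 0.10 on the log2 scale (edgeR interaction, adjusted p = 1.81e-10), the 22nd lowest value of all genes. The 2 treatments moved LRAT in opposite directions over time. With TCDD, LRAT was 2.9-fold lower at D2 than at D1 (log2 change -1.53 ± 0.06, edgeR adjusted p = 3.11e-13). With DMSO it was 1.58-fold higher at D2 than at D1 (0.66 ± 0.07, edgeR adjusted p = 3.92e-07). Beside this, edgeR called 4 of 6 primitive streak and mesoderm markers lower with TCDD at D2, and DESeq2 called 3 of the 6. The log2 changes of the 4 were -1.21 for MIXL1, -0.90 for T, -0.86 for EOMES and -0.85 for EVX1. Of all tested genes, edgeR called 1.54% lower and 1.41% higher with TCDD at D2. Of the 7 pluripotency markers, SOX2 alone was called with TCDD at D2, higher by 0.59. The other 6 were not called, and the median log2 change of the 7 was 0.08. An unadjusted edgeR p under 0.05 was found for 4 of the 7, SOX2 included (57.1%, against 14.1% of all tested genes). The summed level of 5 fibroblast markers was 432 to 457 CPM in TCDD D1, against 397 to 398 CPM in DMSO D1. At D2 it was 281 to 282 CPM with TCDD, against 216 to 231 CPM with DMSO. LUM was at 0 in all groups, DCN in all but TCDD D1, and COL3A1 in TCDD D1. Only 2 of the 5 were tested, and of these COL1A1 alone was called with TCDD (log2 changes of 0.2 at D1 and 0.54 at D2). At D1, 0.764% of all tested genes were called higher with TCDD. The 5 trophoblast and amnion markers summed to 34.3 to 39.4 CPM in TCDD D1 and 31.7 to 36.1 CPM in DMSO D1. At D2 they summed to 3.6 to 3.99 CPM with TCDD and 3.26 to 3.44 CPM with DMSO. The 4 definitive endoderm markers summed to 14.8 to 17 CPM in TCDD D2 and 15.7 to 16.3 CPM in DMSO D2. At D1 they were at 1.05 to 1.42 CPM with TCDD and 0.813 to 1.77 CPM with DMSO. The 5 neuroectoderm markers stayed within 2.44 to 3.99 CPM. The part of these markers in the results of LRAT and the other members was not tested. The D2 libraries differ from the D1 libraries by time, medium and inhibitor together, which cannot be told apart.

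**Figure D1:**
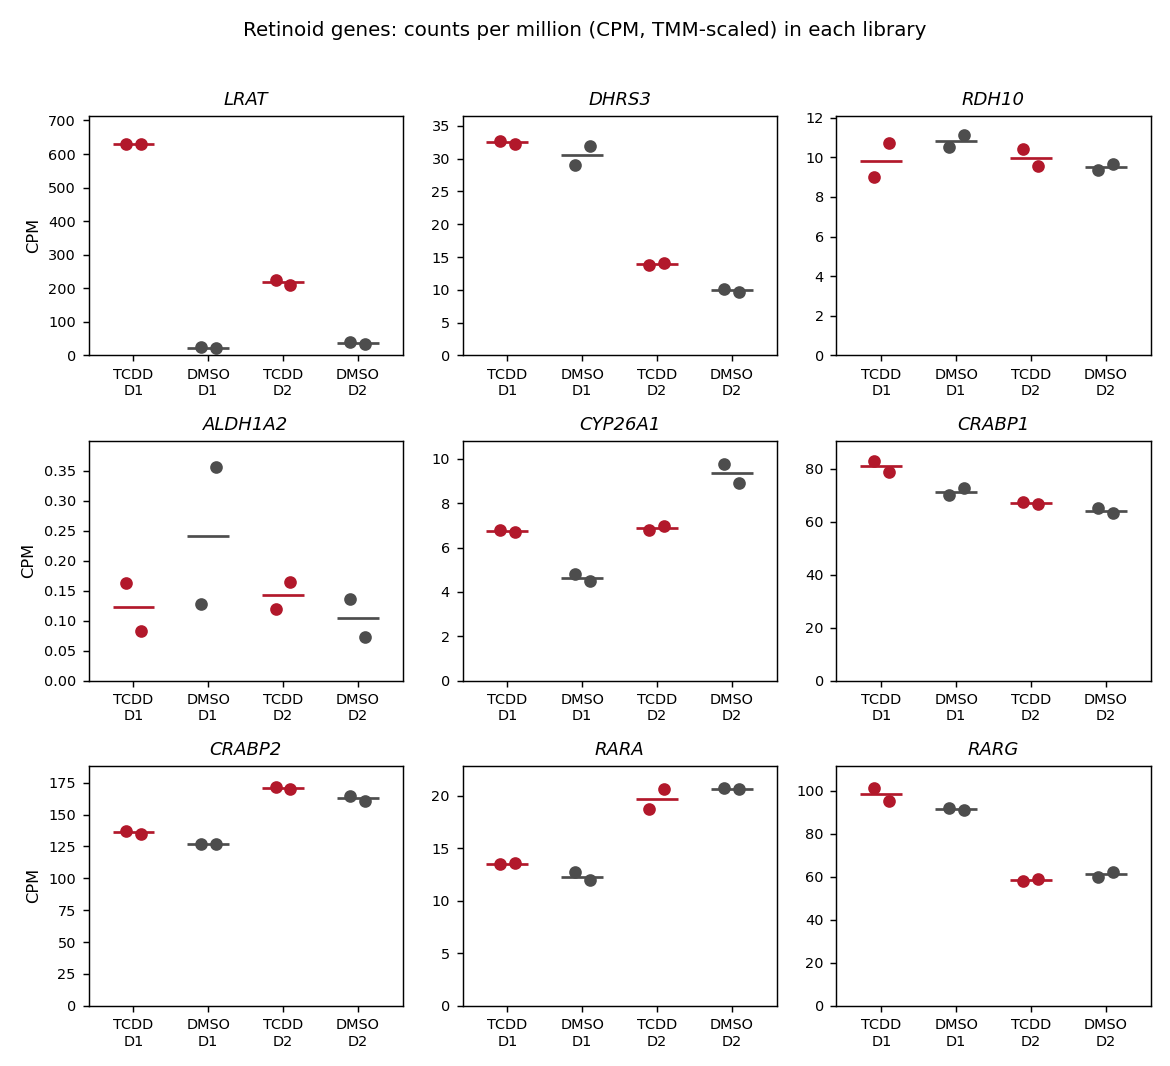
Levels of the 9 retinoid genes in each library (CPM, linear axes from 0, one panel per gene), with TCDD in red and DMSO in grey, a point per library and a line at the mean of 2. LRAT stands at 630 and 631 CPM in TCDD D1 against 24.4 and 21.9 CPM in DMSO D1, and the order of the CYP26A1 groups is opposite at D1 and D2.

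CYP26A1, which breaks down retinoic acid, was higher with TCDD at D1 and lower with TCDD at D2. At D1 it had 6.79 and 6.69 CPM with TCDD, against 4.79 and 4.5 CPM with DMSO. D2 libraries had 6.79 and 6.99 CPM with TCDD, against 9.75 and 8.93 CPM with DMSO. The groups did not overlap at either time, and the 4 TCDD libraries lay within 6.69 to 6.99 CPM. The D1 difference was 1.45-fold (log2 change 0.54 ± 0.11, edgeR adjusted p = 0.0135), and at D2 the TCDD level was 1.35-fold lower (-0.44 ± 0.10, edgeR adjusted p = 0.0146).

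The change of the CYP26A1 effect between times was -0.97 ± 0.14 (edgeR interaction, adjusted p = 0.00204). With DMSO, CYP26A1 was 2.01-fold higher at D2 than at D1 (1.01 ± 0.10, edgeR adjusted p = 1.13e-07). With TCDD the fitted change over time was 0.03 ± 0.10, with a 95% interval of -0.18 to 0.24 and an edgeR adjusted p of 0.804. The difference was called in every alternative run, and the call at each single time was not. At D1 that call was lost without DMSO D1 replicate 1 (edgeR adjusted p = 0.0841), without DMSO D1 replicate 2 (0.101), without TCDD D1 replicate 1 (0.0615) and when only the D1 libraries were fitted (0.0505). At D2 it was lost without DMSO D2 replicate 1 (edgeR adjusted p = 0.222), TCDD D2 replicate 1 (0.109) or TCDD D2 replicate 2 (0.0932), and with DESeq2 (0.0909). In a GENCODE annotation of GRCh38, which is not that of the counts, 30.2% of CYP26A1's exon bases are shared with AL358613.3 on the same strand. CYP26A1's counts could thus hold reads of both. Its relative CYP26B1 averaged 0.554 CPM in TCDD D1, 0.609 CPM in DMSO D1, 0.787 CPM in TCDD D2 and 1.11 CPM in DMSO D2.

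Of the enzymes that pass retinol and retinal back and forth, DHRS3 was called higher with TCDD at D2 and lower at D2 than at D1 under both treatments, and RDH10 was called in no comparison. DHRS3, the retinal reductase, had 32.7 and 32.3 CPM in TCDD D1, against 29.1 and 31.9 CPM in DMSO D1. At D2 it had 13.8 and 14.1 CPM with TCDD, against 10.1 and 9.68 CPM with DMSO. The groups did not overlap at either time, although at D1 the nearest libraries of the 2 treatments were close. DHRS3 was 1.41-fold higher with TCDD at D2 (log2 change 0.49 ± 0.08, edgeR adjusted p = 0.000868) and was not called at D1 (0.09 ± 0.06, 95% interval -0.05 to 0.22, edgeR adjusted p = 0.702). The difference between these 2 effects was 0.41 ± 0.10 (edgeR adjusted p = 0.083), so an unequal effect at the 2 times was not called, although without the low-count filter it was (edgeR adjusted p = 0.019). DHRS3 fell over time under both treatments, to a level 2.33-fold lower at D2 with TCDD (-1.22 ± 0.07, edgeR adjusted p = 4.8e-11) and 3.09-fold lower with DMSO (-1.63 ± 0.07, edgeR adjusted p = 1.85e-12).

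RDH10, the retinol dehydrogenase, had 9 and 10.7 CPM in TCDD D1, against 10.5 and 11.1 CPM in DMSO D1, and 10.4 and 9.57 CPM in TCDD D2, against 9.34 and 9.68 CPM in DMSO D2. The treatments overlapped at both times. Without composition scaling it was called lower at D2 than at D1 with DMSO (log2 change -0.27, edgeR adjusted p = 0.0248). The 95% interval of its TCDD change ran from -0.34 to 0.06 at D1 and from -0.13 to 0.27 at D2. ALDH1A2, which makes retinoic acid, was barely detected, with 7 and 3 reads in TCDD D1, 5 and 14 in DMSO D1, 5 and 6 in TCDD D2, and 5 and 3 in DMSO D2. These counts overlapped in every comparison. Without the low-count filter its log2 TCDD change was -0.92 ± 0.64 at D1 (edgeR adjusted p = 0.784) and 0.43 ± 0.76 at D2 (0.92), and neither was called. Its relatives ALDH1A1 and ALDH1A3 averaged 5.09 and 7.51 CPM in TCDD D1, 4.28 and 7.89 CPM in DMSO D1, 2.96 and 11.3 CPM in TCDD D2, and 2.85 and 10.2 CPM in DMSO D2.

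**Figure D2:**
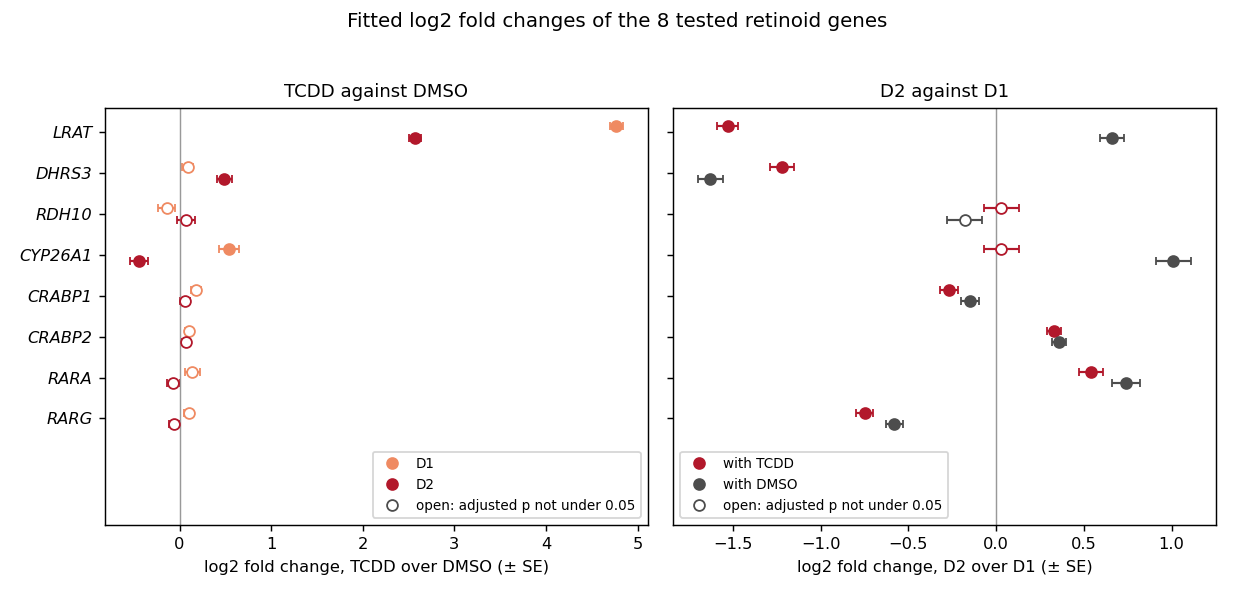
Fitted log2 fold changes (± SE) of the 8 tested retinoid genes, TCDD over DMSO at D1 and D2 (left) and D2 over D1 with TCDD and with DMSO (right), where filled points have an adjusted p under 0.05. LRAT is at 4.77 at D1 and 2.57 at D2, CYP26A1 is on opposite sides of 0 at the 2 times, and the DHRS3, CRABP1, CRABP2, RARA and RARG changes over time lie on the same side of 0 under both treatments.

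CRABP1 and CRABP2 bind retinoic acid in the cytoplasm, and CRABP2 is known to hand it to the receptors. CRABP1 had 82.9 and 78.9 CPM in TCDD D1, against 70 and 72.9 CPM in DMSO D1, and 67.4 and 66.8 CPM in TCDD D2, against 65.1 and 63.3 CPM in DMSO D2. CRABP2 had 137 and 135 CPM in TCDD D1, against 127 and 127 CPM in DMSO D1, and 172 and 170 CPM in TCDD D2, against 165 and 161 CPM in DMSO D2. For both genes the TCDD libraries were above the DMSO libraries at each time, by small amounts. At D1 the log2 change was 0.18 ± 0.05 for CRABP1 (edgeR adjusted p = 0.0941) and 0.10 ± 0.04 for CRABP2 (0.406), and at D2 it was 0.06 ± 0.05 (0.621) and 0.07 ± 0.04 (0.521). None of these was called.

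Over time the 2 binding proteins moved in opposite directions. On the log2 scale CRABP2 rose by 0.33 ± 0.04 with TCDD (edgeR adjusted p = 2.38e-06) and 0.36 ± 0.04 with DMSO (8.02e-07). CRABP1 fell by 0.27 ± 0.05 with TCDD (edgeR adjusted p = 8.53e-05) and by 0.15 ± 0.05 with DMSO (0.0104). The CRABP1 call with DMSO was lost without DMSO D1 replicate 2 (edgeR adjusted p = 0.1) or DMSO D2 replicate 2 (0.103). CRABP1's share of all CRABP1 and CRABP2 reads was 28.1% and 28.2% in TCDD D2 and 28.3% and 28.2% in DMSO D2, against 37.7% and 36.9% in TCDD D1 and 35.6% and 36.5% in DMSO D1. The exact 95% binomial intervals of the D1 libraries lay within 34.5% to 38.7% and those of the D2 libraries within 27.2% to 29.3%, for counting error only. In the same GENCODE annotation, not that of the counts, 45.9% of CRABP1's exon bases lie opposite another transcript, AC011270.2. The strand setting of the counts is not given in the sources used here.

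**Figure D3:**
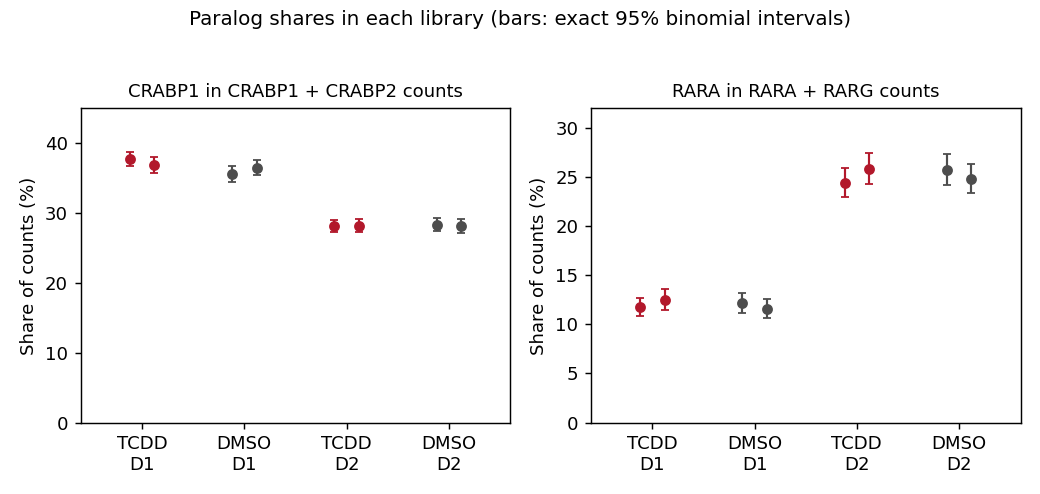
Share of CRABP1 in the reads of CRABP1 and CRABP2 (left) and of RARA in the reads of RARA and RARG (right), as a percent in each library, TCDD in red and DMSO in grey. Bars are exact 95% binomial intervals, and all D1 libraries are apart from all D2 libraries in both panels, whichever the treatment.

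The receptors RARA and RARG also moved in opposite directions over time. RARA had 13.5 and 13.6 CPM in TCDD D1, against 12.7 and 12 CPM in DMSO D1, and 18.7 and 20.6 CPM in TCDD D2, against 20.7 and 20.6 CPM in DMSO D2. RARG had 101 and 95.1 CPM in TCDD D1, against 91.7 and 91.1 CPM in DMSO D1, and 58 and 59.1 CPM in TCDD D2, against 59.8 and 62.2 CPM in DMSO D2. RARA libraries overlapped between treatments at D2 and not at D1. The TCDD changes were 0.14 ± 0.08 for RARA (edgeR adjusted p = 0.59) and 0.10 ± 0.05 for RARG (0.457) at D1, and -0.07 ± 0.07 (0.74) and -0.06 ± 0.05 (0.66) at D2, none of them called.

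RARA was higher at D2 than at D1, by 0.54 ± 0.07 log2 units with TCDD (edgeR adjusted p = 5.21e-06) and 0.74 ± 0.08 with DMSO (1.1e-07). RARG was lower at D2, with a log2 change of -0.75 ± 0.05 with TCDD (edgeR adjusted p = 3.41e-10) and -0.58 ± 0.05 with DMSO (9.45e-09). RARA's share of the reads of both receptors was 24.4% and 25.8% in TCDD D2 and 25.7% and 24.8% in DMSO D2, against 11.8% and 12.5% in TCDD D1 and 12.2% and 11.6% in DMSO D1. Of RARA's exon bases in that GENCODE annotation, 13.4% lie opposite RARA-AS1, whose reads cannot be told apart without strand. The other receptors were RXRA, at 39.8 CPM in TCDD D1 and 39.7 CPM in DMSO D1, RXRB, at 27.1 and 27.2 CPM, and RARB, at 0.62 and 0.787 CPM. In D2 libraries RXRA averaged 47.3 CPM with TCDD and 43.5 CPM with DMSO, RXRB 22.4 and 23.2 CPM, and RARB 1.16 and 0.933 CPM. RXRG had at most 9 reads in a library.

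Counted together, 2 of the 8 tested members were called with TCDD at D1, both higher (LRAT, CYP26A1), where 1.2% of all tested genes were called (0.764% higher and 0.434% lower). That split of all genes, 132 higher and 75 lower, was 93 and 172 without TCDD D1 replicate 1 and 70 and 10 without DMSO D1 replicate 1. At D2, 2 were called higher (LRAT, DHRS3) and 1 lower (CYP26A1), where 2.95% of all genes were called (1.41% higher and 1.54% lower). Members that did not overlap between treatments were 7 of 8 at D1, all higher with TCDD, against 37.5% of all genes (18.9% higher), and 6 of 8 at D2, 4 higher and 2 lower, against 47.7% of all genes (24.4% higher and 23.3% lower). The unequal TCDD effects at the 2 times were called for 2 members (LRAT, CYP26A1), both lower at D2, where 0.77% of all genes were called (0.492% higher and 0.278% lower). Over time, 6 of 8 were called with TCDD, 2 higher and 4 lower, where 65.2% of all genes were called (33% higher and 32.2% lower), and 7 of 8 with DMSO, 4 higher and 3 lower, where 63.2% were called (32.5% higher and 30.7% lower). Shares near those backgrounds are no result about the members. The members were chosen with earlier results of these data known, so shares or medians apart from those of all genes are no test of the set. The members' median log2 change was 0.12 with TCDD at D1 and 0.07 at D2, where the median of all tested genes was 0 at both times. Over time it was -0.12 with TCDD and 0.1 with DMSO, against 0 and 0.01 for all tested genes.

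Per length of annotated exon, the level order in DMSO D1 was CRABP2 (115 CPM per kb), CRABP1 (92.5), RARG (26.6), DHRS3 (17.7), LRAT (4.65), RARA (2.96), RDH10 (2.62), CYP26A1 (1.87) and ALDH1A2 (0.0549). RARA and RDH10, neighbours in this order, had 3.05 and 2.88 against 2.54 and 2.69 CPM per kb in their libraries, which did not overlap. In TCDD D1 LRAT was at 126 CPM per kb, beside CRABP2 at 124 and CRABP1 at 105. The libraries behind these means were 126 and 126 CPM per kb for LRAT, against 125 and 123 CPM per kb for CRABP2, so the 2 genes were close. At D2 LRAT stood at 43.7 CPM per kb with TCDD and 7.36 with DMSO, and CRABP2 at 155 and 148. Lengths are of union exons on GRCh38, which is not the annotation used for the counts.

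The wider retinoid list held 100 further genes, of which 98 were in the files and 68 were tested. At D1 edgeR called 0 of the 68 with TCDD (where 1.2% of all tested genes were called), DESeq2 called 0, and 1 was called without TCDD D1 replicate 1 or with no filter beyond 1 count. An unadjusted p under 0.05 was found for 13 (19.1%, against 10.4% of all tested genes), and their median log2 change was -0.02. At D2, where 2.95% of all tested genes were called, edgeR called 1, RET, a receptor kinase known to respond to retinoic acid, which fell by 0.22 ± 0.06 on the log2 scale with an adjusted p of 0.0477. RET was at 42.2 and 44.6 CPM in TCDD D2, against 50.5 and 50.7 CPM in DMSO D2. DESeq2 called none of the 68 (RET at a DESeq2 adjusted p of 0.137), and with RLE scaling the edgeR adjusted p was 0.0606. Leaving out any one D2 library also ended the call, with adjusted p from 0.12 to 0.286. No gene of the list had unequal TCDD effects at the 2 times by edgeR (where 0.77% of all tested genes were called) or by DESeq2, but 4 were called without TCDD D1 replicate 1 and 3 with no filter beyond 1 count. An unadjusted p under 0.05 was found for 10 (14.7%, against 10.5% of all tested genes).

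Over time, most genes of the list were called, as were most of all tested genes. With TCDD 34 rose and 17 fell between D1 and D2, and with DMSO 30 rose and 17 fell, of 68 (median log2 change 0.22 with TCDD and 0.21 with DMSO). Called in either direction were 75% and 69.1% of the list, near the 65.2% and 63.2% of all tested genes called over time. By direction, 33% of all tested genes rose and 32.2% fell with TCDD, and 32.5% rose and 30.7% fell with DMSO. The median log2 change of all tested genes was 0 with TCDD and 0.01 with DMSO. The list was chosen with earlier results of these data known, and no result about it is read from these shares. STRA6, the retinol uptake receptor, was at 44.5 and 48 CPM at D2 with TCDD and DMSO, against 20.9 and 23.5 CPM at D1. Of 18 tested genes listed as induced by retinoic acid in stem cells, 11 rose and 2 fell with TCDD and 10 rose and 2 fell with DMSO. The shares called in either direction were near those of all tested genes (72.2% against 65.2% with TCDD, 66.7% against 63.2% with DMSO). The shares that rose were above the 33% and 32.5% of all tested genes. The median log2 change of the 18 was 1.16 with TCDD and 0.98 with DMSO, and the reason was not tested. Among the 18, GBX2, a homeobox gene, was at 50.3 CPM in TCDD D2 and 38.4 CPM in DMSO D2, against 7.78 and 9.19 CPM in TCDD D1 and DMSO D1. CDX1, another homeobox gene, had 235 and 204 reads in TCDD D2 and 146 and 191 in DMSO D2, against 4 and 1 in TCDD D1 and 3 and 2 in DMSO D1. SKAP2, an adaptor protein, averaged 23.4 CPM in TCDD D2 and 22.5 CPM in DMSO D2, against 7.83 and 7.56 CPM at D1.

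Genes with the pattern most like LRAT over the 8 libraries were TIPARP (Pearson r of log2 CPM 0.997), CYP1B1 (0.959) and MYADML2 (0.951), taken from 1699 genes that averaged 1 CPM or more and whose group means spanned at least 1 log2 unit. The points share libraries and groups, so r is a description. TIPARP had 61.9 and 65.5 CPM in TCDD D1, against 6.01 and 5.77 CPM in DMSO D1, and 33.3 and 32.6 CPM in TCDD D2, against 8.3 and 9.49 CPM in DMSO D2. From D1 to D2 with TCDD, the fold was 0.345 for LRAT, 0.517 for TIPARP, 0.769 for CYP1B1, 0.75 for MYADML2 and 0.0248 for CYP1A1. For CYP26A1 the most alike were PDE1B (0.882), ZNF781 (0.879) and GABBR2 (0.86), and none of the 3 was called with TCDD at either time.

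**Figure D4:**
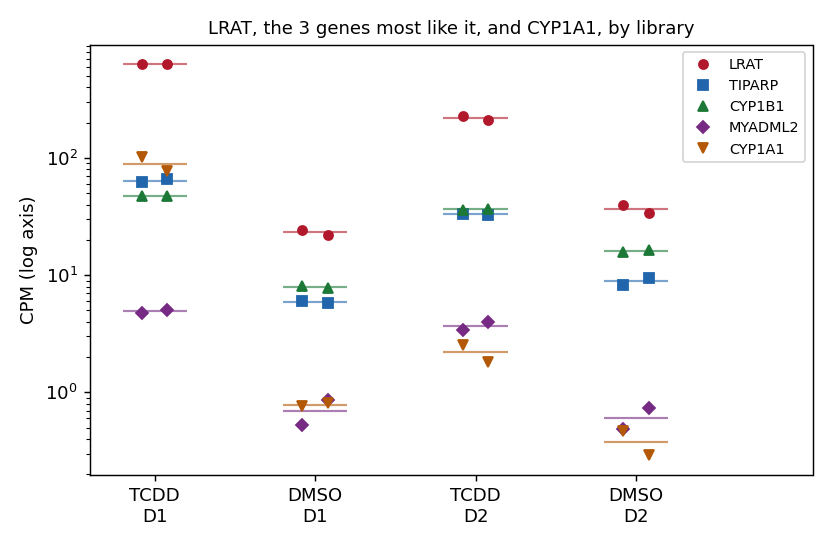
Levels of LRAT, its 3 most alike genes and CYP1A1 in each library (CPM, log axis), a point per library and a line at the mean of 2. All 5 genes are higher with TCDD at both times, and CYP1A1 drops to 2.56 and 1.82 CPM in TCDD D2 while LRAT is at 226 and 209 CPM.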

How the data were processed

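Total RNA of 8 libraries was sequenced. The authors deposited raw read counts per gene symbol, not normalized, as the whole-number file values show. Per the submitters' processing notes, cutadapt 1.9.1 trimmed the reads, STAR aligned them and featureCounts 1.5.1 counted them, on hg19. Not given in the sources used here were STAR's version, the annotation, the strand setting and how shared reads were handled. Sample titles gave the groups.

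Versions were edgeR 4.0.16 and DESeq2 1.42.0, run in R 4.3.3. The function filterByExpr removed low genes, and scaling was by TMM (factors 0.958 to 1.04). A single model of group means was fitted to all 8 libraries by edgeR's quasi-likelihood method (common biological variation 3.86%). F tests were two-sided, p-values were adjusted by Benjamini-Hochberg over 17268 genes and called under 0.05, and the code was tested on simulated data. Intervals are 95%, and levels are edgeR's CPM. Replicates differed by more than sampling noise (chi-square per gene 6.59 in TCDD D1, 3.86 in DMSO D1, 4.43 in TCDD D2 and 3.21 in DMSO D2, over genes with 20 counts or more), so each library was 1 sample. The members and lists were chosen with earlier results of these data known. List genes named are up to 6 called genes per comparison by p, averaging 1 CPM or more, plus the RARB and RXR receptors. Some genes that this rule names are not reported here. ALDH1A1, ALDH1A3 and CYP26B1 were named after their values were seen. Genes most like LRAT or CYP26A1 were the 3 of highest r, passing over symbols of non-coding RNAs and open reading frames. Alternatives were DESeq2, RLE scaling, no composition scaling, no filter beyond 1 count, only the groups compared, a replicate block and each library left out.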

Additional observations from a re-analysis of the deposited data

Results flagged for a closer look

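For 2 members the TCDD effect at D2 differed from that at D1 by a test of the difference itself (edgeR interaction, Benjamini-Hochberg adjusted over all tested genes). For LRAT the difference was -2.20 on the log2 scale (adjusted p = 1.81e-10). For CYP26A1 it was -0.97 (adjusted p = 0.00204). With 2 libraries per group, no group was large enough to test for a library far from the others.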

How the results depend on the processing

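LRAT and the difference of CYP26A1 effects kept their direction and call in every alternative run, with log2 changes of 4.69 to 4.85 (D1), 2.46 to 2.69 (D2) and -2.31 to -2.08 (difference) for LRAT, and DHRS3 at D2 stayed at 0.46 to 0.53. For RDH10, D2 against D1 with TCDD reversed to -0.08 with no composition scaling, and ran from -0.09 (without TCDD D1 replicate 1) to 0.15 with 1 library left out, being -0.03 without TCDD D2 replicate 1. CYP26A1 in that comparison reversed to -0.08 with no composition scaling. Neither was called. No composition scaling moved the median of all genes by -0.11 with TCDD and -0.09 with DMSO over time, and the calls became 4188 higher and 6994 lower with TCDD (main 5707 and 5560) and 4381 and 6418 with DMSO (main 5617 and 5296). It also called RDH10 lower with DMSO over time (-0.27, edgeR adjusted p = 0.0248). Counts of called genes at D1 moved to 505 with no filter and 114 with only the groups compared (members 1), at D2 to 908 with no filter, and for the difference of effects to 468, where DHRS3 was then called (adjusted p = 0.019). The cause was not tested.

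Leaving out 1 library, calls ranged from 80 to 265 at D1, 198 to 648 at D2, 31 to 275 for the difference, 9139 to 11248 with DMSO over time and 9746 to 11290 with TCDD over time, and members called from 1 to 2, 2 to 3, 2 to 2, 6 to 8 and 6 to 6. The count of 8 came without DMSO D1 replicate 1, where a lower filter let ALDH1A2 in and it was called lower at D2 (-1.76, edgeR adjusted p = 0.0228), with 14 reads in the 1 library left in DMSO D1. Counts moved by over 1.5 times at D1 without DMSO D1 replicate 1 (80), at D2 without TCDD D2 replicate 2 (220), DMSO D2 replicate 1 (198) or replicate 2 (246), and for the difference without TCDD D1 replicate 1 (275), TCDD D2 replicate 1 (77) or replicate 2 (42), DMSO D1 replicate 1 (57) or replicate 2 (82), and DMSO D2 replicate 1 (31) or replicate 2 (41). From the wider retinoid list, 0 to 3 genes were called with TCDD at D2 across the alternatives. A lone sample was assumed to vary like the other groups.

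The replicate numbers do not pair the samples by any label. Same-numbered deviations correlated between the treatments by 0.308 at D1 and 0.21 at D2, and between TCDD D1 and TCDD D2 by -0.29. The other pairs of groups ran from -0.127 to 0.0444. A replicate block fits a single shift common to all groups. It thus cannot take up deviations that differ between D1 and D2. With a replicate block, calls were 225, 515, 10901, 11234 and 159 (D1, D2, DMSO over time, TCDD over time, difference), no tested member changed its call, and RET at D2 had an adjusted p of 0.0538. ALDH1A2 had at most 14 reads in a library, and whether depth limits its result was not tested.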
